A study of Mus musculus with 12 samples.

Results

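The genes described here are 37 genes named for the cells of brain blood vessels, the endothelial cells that line them and the mural cells (pericytes and smooth muscle cells) that wrap them. They were taken by symbol from a list of known vessel genes, and all 37 were found, each at 1 locus, among the 20989 RefSeq loci measured. Of the 37, 26 were grouped as endothelial, 9 as mural and 2, Icam1 and Vcam1, as inducible adhesion molecules. Bulk RNAseq of auditory cortex came from acute coronal slices, 350 µm thick, of 6 C57bl6/J mice at 4 weeks of age, and the labels give no genetic change. The hemispheres of a slice were cut apart, and for each mouse a control hemisphere was kept for 1 h in artificial cerebrospinal fluid (aCSF) and the other for 1 h in cocktail aCSF. The cocktail held 50 µM bicuculline, which blocks GABA-A receptors, with 100 µM norepinephrine, 50 µM carbamoylcholine, 100 µM dopamine, 40 µM ascorbic acid and 100 µM serotonin, all given together, so the part of any component cannot be told apart. The study's methods add a resting phase in aCSF for both hemispheres, which the labels do not mention. This gave 6 control and 6 cocktail libraries, paired by mouse.

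Brain endothelial cells form the blood-brain barrier. They are sealed by tight junctions, take up glucose through the transporter GLUT1 (encoded by Slc2a1), and pump many drugs back into the blood. Pericytes share a basement membrane with them and are held there by the growth factor PDGF-B, which endothelial cells release and the receptor Pdgfrb on mural cells binds. When endothelial cells are activated, they display selectins and the adhesion molecules ICAM-1 and VCAM-1, to which leukocytes in the blood attach.

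Levels are given as FPKM, fragments scaled by transcript length and by the library's fragments on protein coding genes, so that levels of different genes can be set side by side. The reads behind each value, recovered here from the interval deposited with it, summed to 10411092 to 19396847 per control library and 13337213 to 17206244 per cocktail library, and 25 to 7293 reads lay behind each value of the 37 genes. The comparison of treatments took in the 12032 loci, 36 of the 37 genes among them, whose FPKM averaged 1 or more. It used limma on log2(FPKM + 1) with the mouse as a block, a scale on which changes come out too small where the FPKM is low. Fos rose in the cocktail hemisphere of all 6 mice (log2 fold change 0.99), with an adjusted p of 2.92e-05 by limma and the Benjamini-Hochberg method. The control library of mouse 1 stood apart: of all loci tested it had the lowest control FPKM at 50.1%, and of the 37 genes at 14 (37.8%), so values without mouse 1 are given where they change a result.

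Under control conditions the 6 endothelial genes taken as defining markers (Cldn5, Flt1, Pecam1, Cdh5, Tie1 and Ly6c1) were detected in every library, at 2.82 to 29.0 FPKM. The 7 defining mural markers (Pdgfrb, Rgs5, Vtn, Abcc9, Acta2, Tagln and Myl9) ranged from 0.821 to 24.2 FPKM. Across the 37 genes the mean control FPKM ran from 0.715 for Anpep, the pericyte surface peptidase that was not tested for its low level, to 199 for Bsg, with a median of 5.93. Of the 37, 6 had at least 20 FPKM, 13 had 5 to 20 and 18 had less than 5. The spread over the 6 control libraries was 6.93% (Bsg) to 32.0% (Nostrin) of the mean, with a median of 14.9%.

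**Figure D1:**
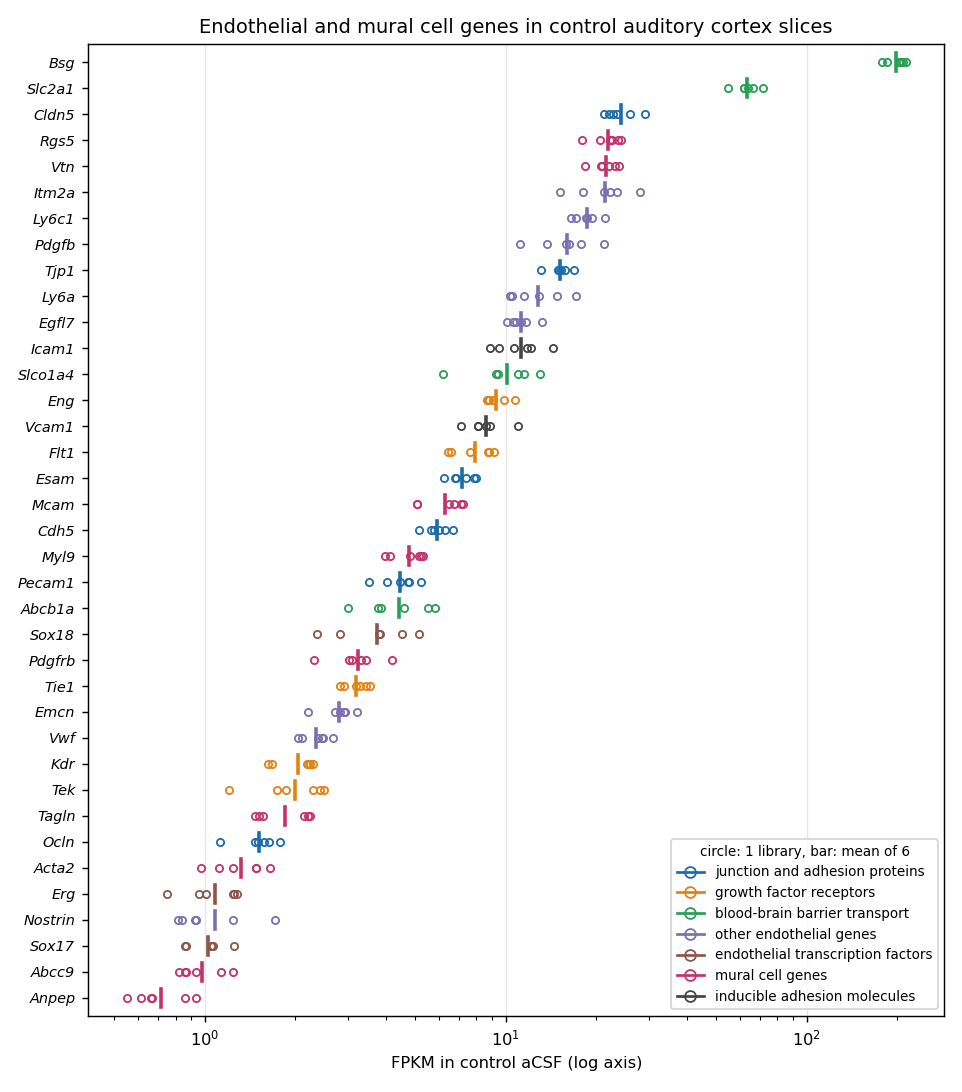
FPKM of the 37 genes in the 6 control libraries on a log axis, each circle a library and each bar the mean, in colours by role. Bsg and Slc2a1 lie above the other genes, while the smooth muscle gene Acta2 (mean 1.32 FPKM) and the pericyte genes Abcc9 (0.976) and Anpep (0.715) lie near the foot.

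The highest levels were those of Bsg and Slc2a1, which were grouped with transport across the barrier. Bsg (basigin), a partner of lactate transporters that many brain cells make, had a control FPKM between 179 and 213 (median 204). Slc2a1 followed with 54.8 to 71.9 FPKM (median 62.9). The drug efflux pump gene Abcb1a, at 2.99 to 5.83 FPKM, and the organic anion transporter gene Slco1a4, at 6.18 to 13.0 FPKM, were far lower, and for both the lowest of the 6 control values was that of mouse 1. The tight junction gene Cldn5 had 21.3 to 29.0 FPKM (median 23.2), and this range overlapped those of the pericyte genes Rgs5 (18.0 to 24.2) and Vtn (18.4 to 23.8).

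At the other end, the endothelial transcription factor genes Sox17 (mean 1.03 FPKM) and Erg (1.08) had levels close to the filter, and Sox18 was higher, at 3.75. The endothelial growth factor receptor genes were ordered Eng (9.32), Flt1 (7.88), Tie1 (3.19), Kdr (2.04) and Tek (2.00) by mean control FPKM. Of the 36 pairs of neighbours in the order of all 37 genes, only 3 had the upper gene higher in all 6 mice: Bsg above Slc2a1, Slc2a1 above Cldn5 and Abcb1a above Sox18. A sign-flip permutation test, exact and two-sided, on the 6 control libraries gave those 3 pairs p = 0.03125, the smallest that 6 mice allow (adjusted over the 36 pairs, 0.281). With so few pairs at that value none could pass 0.05 after adjustment, so the test does not settle the order of neighbours. In every other pair the order was turned in at least 1 mouse.

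In the cocktail hemispheres Slc2a1 rose and Icam1 fell, and none of the other 34 genes tested passed the test. The 2 called genes are 5.56% of the 36 tested, against 1.50% of all loci tested at the same threshold. By direction, 1 of the 36 was called higher, against 1.22% of all loci, and 1 lower, against 0.274%. Of the 36, 18 had a higher and 18 a lower fitted level in the cocktail, with a median log2 fold change of 0.0013, against 0.0076 over all 12032 loci, of which 6550 were higher and 5482 lower. For none of the 36 were the ranges of control and cocktail FPKM apart, as they were at 0.914% of all loci tested. Moves in the same direction in all 6 mice were seen for 9 of the 36 (25.0%, against 6.30% of all loci tested). Of these, Slc2a1, Cdh5, Pecam1, Mcam and Abcc9 were higher, and Icam1, Vcam1, Pdgfb and Emcn were lower. Abcc9 passed the filter on low FPKM only through its cocktail mean. In bulk tissue, a change in the number of vessel cells cannot be told apart from a change in the RNA of each cell.

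**Figure D2:**
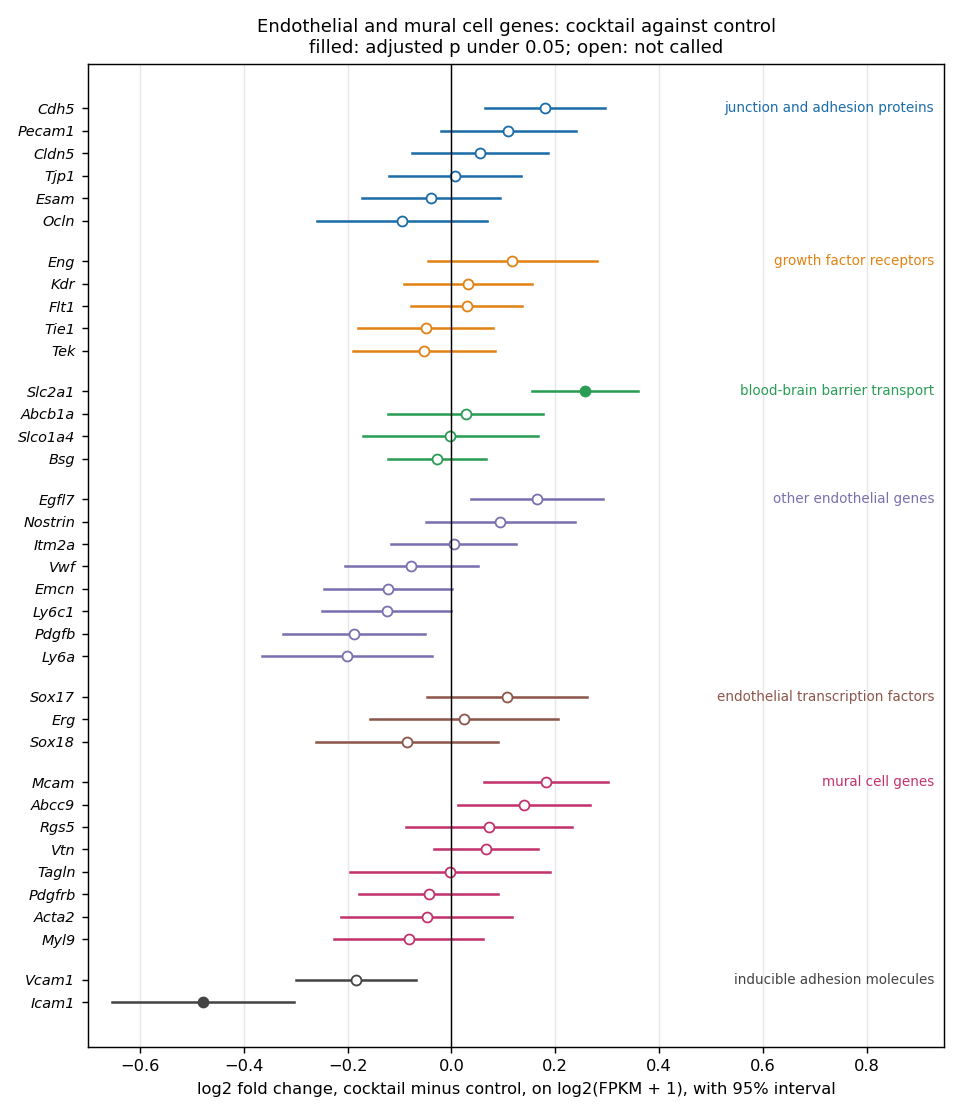
Log2 fold change (cocktail minus control, on log2(FPKM + 1)) of the 36 genes tested, with the 95% interval from limma, grouped by role. Filled circles mark adjusted p under 0.05: Slc2a1 to the right of 0 and Icam1 to the left.

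Slc2a1, on chromosome 4 of mm10 from 119108745 to 119137329, encodes the glucose transporter of the barrier, and astrocytes also make it. Its FPKM was 54.8, 62.9 and 71.9 (lowest, median and highest) in control and 69.8, 75.4 and 80.9 in the cocktail. The ranges met only in that the highest control value (mouse 2) exceeded the lowest cocktail value (mouse 6). The mean went from 63.5 ± 5.67 to 75.9 ± 4.28 FPKM (SD, n = 6 each), which is 1.20 times as high, and the within-mouse log2 differences ran from 0.17 to 0.43. The log2 fold change was 0.26 (standard error 0.046, adjusted p = 0.0144 from limma), and the exact sign-flip permutation test on the 6 mice, two-sided, gave p = 0.03125. This call was close to the threshold. It was lost without the mouse as a block (adjusted p = 0.0763 from limma), without mouse 3 (0.0710) or mouse 4 (0.0852), and with voom on the recovered reads (0.0664), while the log2 fold change stayed between 0.21 and 0.28. The summed FPKM of 8 astrocyte markers, none of them at 0, spanned 478 to 633 in control hemispheres and 580 to 645 in cocktail hemispheres and was higher in the cocktail for 5 of 6 mice. None of the 8 was called (median log2 fold change 0.066), and their part in the Slc2a1 difference was not tested.

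Icam1, on chromosome 9 from 21015960 to 21028796, encodes the adhesion molecule ICAM-1, a ligand of leukocyte integrins. Its FPKM was 8.90, 11.2 and 14.3 (lowest, median and highest) in control and 6.01, 7.33 and 12.7 in the cocktail. The ranges overlapped because mouse 3 had the highest value in both groups, yet the cocktail hemisphere was the lower in 6 of 6 mice, by 0.16 (mouse 3) to 0.86 (mouse 6) on the log2 scale. The mean was 11.2 ± 1.96 in control and 7.93 ± 2.51 FPKM in the cocktail (SD, n = 6 each), a ratio of 0.707. The log2 fold change was -0.48 (standard error 0.080, adjusted p = 0.00971 from limma; p = 0.03125 in the exact sign-flip permutation test), with 244 to 658 reads per library. The call was kept without each mouse in turn and lost without the block (adjusted p = 0.276 from limma) and with no filter on low FPKM (0.0594). Icam1 can also be made by microglia and astrocytes. The summed FPKM of 8 microglia markers, none of them at 0, spanned 125 to 142 in control hemispheres and 124 to 155 in cocktail hemispheres, with no marker called, and their part in the Icam1 difference was not tested.

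Vcam1, on chromosome 3 from 116110020 to 116129688, encodes the companion adhesion molecule VCAM-1. It had 7.10, 8.36 and 10.99 FPKM (lowest, median and highest) in control and 6.46, 7.44 and 9.22 in the cocktail. All 6 mice had the lower value in the cocktail, by 0.047 to 0.29, but the ranges overlapped widely. The log2 fold change of -0.18 (95% interval -0.30 to -0.069) did not pass the test (adjusted p = 0.182 from limma).

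The sequences before the start sites of the 2 called genes are shown with that of Sele, an adhesion gene described further on that fell in the cocktail as Icam1 did. They are the 250 bases upstream of the RefSeq start (GRCm38.p6, plus strand for all 3), and capitals mark matches, on either strand, to motifs searched after the results were known.
Slc2a1, chr4:119108495-119108744: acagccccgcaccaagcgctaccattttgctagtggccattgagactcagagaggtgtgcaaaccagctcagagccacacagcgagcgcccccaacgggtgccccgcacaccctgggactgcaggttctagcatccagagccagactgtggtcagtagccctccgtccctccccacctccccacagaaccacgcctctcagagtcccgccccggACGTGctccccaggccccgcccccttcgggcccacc
Icam1, chr9:21015690-21015939: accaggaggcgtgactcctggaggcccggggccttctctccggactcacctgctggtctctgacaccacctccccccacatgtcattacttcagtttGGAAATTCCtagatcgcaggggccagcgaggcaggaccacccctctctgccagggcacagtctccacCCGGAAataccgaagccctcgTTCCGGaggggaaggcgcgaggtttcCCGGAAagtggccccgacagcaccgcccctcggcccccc
Sele, chr1:164047984-164048233: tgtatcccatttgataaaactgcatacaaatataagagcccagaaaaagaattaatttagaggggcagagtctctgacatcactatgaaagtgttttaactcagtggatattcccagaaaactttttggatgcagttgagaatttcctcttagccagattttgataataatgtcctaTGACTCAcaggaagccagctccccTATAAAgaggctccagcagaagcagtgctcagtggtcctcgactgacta

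The motifs were ACGTG (the core of hypoxia response elements), CCGGAA (a core of sites for ETS factors), TGANTCA (the AP-1 motif), TATAAA, GGAAATTCC (a kappaB-type sequence), the kappaB consensus and the CArG box of serum response factor. The Slc2a1 window held ACGTG, which 16.6% of 32851 RefSeq windows of this length hold. The Icam1 window held GGAAATTCC, as did 0.286% of windows, and 3 matches to CCGGAA, a motif in 12.03% of windows. Neither the Icam1 nor the Sele window matched the kappaB consensus. Sequences of the kappaB type other than this consensus and GGAAATTCC were not searched. GGAAATTCC is a fixed sequence, while the consensus allows several, so their shares cannot be set side by side. GGAAATTCC was also chosen after the results were known and is identical to the stretch in the Icam1 window. Its share therefore does not measure how unusual that match is. The Sele window held TGACTCA, a match to TGANTCA (6.75% of windows), and TATAAA (12.4%). Windows within 100 bases of the locus start were found for 23 of the 37 genes, of which 4 (Flt1, Kdr, Abcc9 and Myl9) matched the kappaB consensus (7.25% of all windows) and 1 (Myl9) held a CArG box (1.47%). ACGTG was in 1 of the 23 (Slc2a1), CCGGAA in 2 (Kdr and Icam1), TATAAA in 3 (Flt1, Ly6c1 and Vtn), GGAAATTCC in 1 (Icam1) and TGANTCA in 0. A match in such a window is a description of its letters only.

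Genes of endothelial junctions had no member that passed the test. Cdh5, the gene of VE-cadherin, which joins endothelial cells, came nearest. Its FPKM was 5.14, 5.91 and 6.68 (lowest, median and highest) in control and 5.78, 6.85 and 7.76 in the cocktail, higher in 6 of 6 mice. Its log2 fold change was 0.18 (95% interval 0.065 to 0.30, adjusted p = 0.197 from limma). Pecam1, the gene of the adhesion molecule CD31, was also higher in 6 of 6 mice, with a log2 fold change of 0.11 (95% interval -0.020 to 0.24, adjusted p = 0.711 from limma). Cldn5, whose protein claudin-5 seals the barrier, had 21.3 to 29.0 FPKM in control and 21.5 to 28.1 in the cocktail, and a log2 fold change of 0.055 (95% interval -0.076 to 0.19). The tight junction genes Ocln and Tjp1 and the adhesion gene Esam had log2 fold changes of -0.095, 0.0073 and -0.039.

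**Figure D3:**
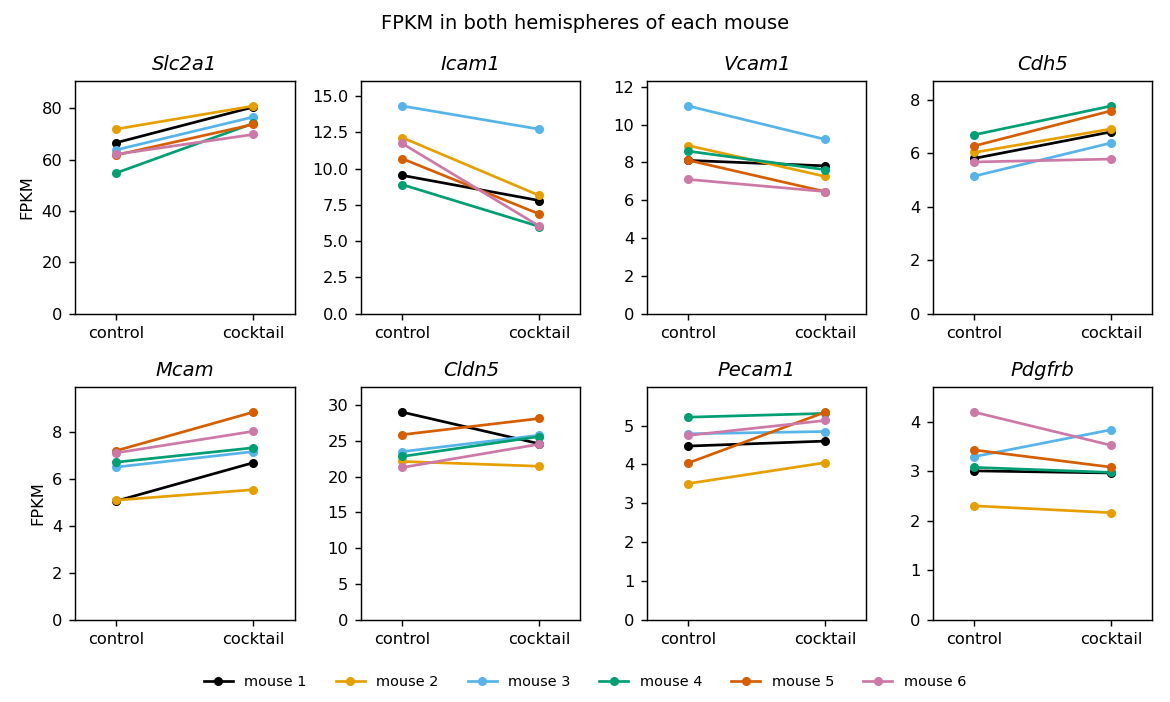
FPKM of 8 genes in the control and cocktail hemisphere of each mouse, with a line and colour per mouse and axes that start at 0. All 6 lines rise for Slc2a1, Cdh5, Mcam and Pecam1 and fall for Icam1 and Vcam1, while those of Cldn5 and Pdgfrb go both ways.

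The receptors for vascular growth factors did not pass the test either. Log2 fold changes were 0.029 for Flt1 and 0.032 for Kdr, the receptors of VEGF, -0.053 for Tek and -0.050 for Tie1, the receptors of the angiopoietin system, and 0.12 for Eng, a coreceptor for TGF-beta family ligands. Eng was higher in the cocktail of every mouse except mouse 1, where it was lower by 0.29, and its log2 fold change without mouse 1 was 0.20 (adjusted p = 0.116 from limma). Of the transport genes other than Slc2a1, Bsg had 179 to 213 FPKM in control and 175 to 208 in the cocktail (log2 fold change -0.028, 95% interval -0.12 to 0.067). Slco1a4 (-0.0020) and Abcb1a (0.027) had fold changes near 0 on average, with the largest within-mouse differences in mouse 1 (0.44 and 0.35).

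Among the other endothelial genes, the most changed was Ly6a, the gene of the surface antigen Sca-1. It had 10.3, 12.2 and 17.2 FPKM (lowest, median and highest) in control and 8.69, 10.7 and 15.0 in the cocktail, with a log2 fold change of -0.20 (95% interval -0.36 to -0.037) that did not pass the test (adjusted p = 0.432 from limma). Its family member Ly6c1 had a log2 fold change of -0.12. Only reads with 1 placement were kept, so reads that such paralogs share are not in these values. Pdgfb, the gene of the growth factor that keeps pericytes on the vessel, was lower in 6 of 6 mice (log2 fold change -0.19, adjusted p = 0.314 from limma), and so was the sialomucin gene Emcn (-0.12). Neurons also make Pdgfb. Egfl7, the gene of a secreted endothelial factor, had 10.1 to 13.2 FPKM in control and 12.3 to 13.3 in the cocktail and was higher in every mouse except mouse 1. Its log2 fold change was 0.16 (adjusted p = 0.383 from limma) with all mice, and it was called without mouse 1 (0.22, adjusted p = 0.0472 from limma). Exons of Egfl7 overlap those of another protein coding gene on the same strand. Nostrin (0.095), Itm2a (0.0045) and Vwf (-0.077) did not pass the test.

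Of the mural genes, 8 were tested and none was called, with 4 higher, 4 lower and a median log2 fold change of 0.032. Mcam, the gene of the adhesion molecule CD146, was nearest, with 5.06, 6.61 and 7.20 FPKM (lowest, median and highest) in control and 5.54, 7.24 and 8.84 in the cocktail. Mcam was grouped as mural but is not among the defining mural markers. It was higher in 6 of 6 mice, with a log2 fold change of 0.18 (95% interval 0.064 to 0.30, adjusted p = 0.211 from limma). Abcc9, which encodes a subunit of the potassium channel of pericytes, was also higher in 6 of 6 mice, at 0.976 ± 0.172 FPKM in control and 1.17 ± 0.112 in the cocktail (SD, n = 6 each; log2 fold change 0.14, adjusted p = 0.527 from limma). The receptor gene Pdgfrb had 2.30 to 4.20 FPKM in control and 2.16 to 3.84 in the cocktail (log2 fold change -0.043). The contractile genes Acta2, Tagln and Myl9 had log2 fold changes of -0.048, -0.0030 and -0.083, and the pericyte genes Rgs5 and Vtn 0.073 and 0.067. Anpep, not tested by limma, had 0.552 to 0.933 FPKM in control and 0.574 to 1.19 in the cocktail. It was higher in 6 of 6 mice, by 0.0024 (mouse 6) to 0.40 (mouse 5) on the log2 scale. The exact sign-flip permutation test gave p = 0.03125, the smallest that 6 mice allow, not adjusted over genes.

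The precision sets a bound on the genes that were not called. For 31 of the 34, the 95% interval of the log2 fold change lay within 0.3 of 0, and for all 34 within 0.5. Scales that shrink low genes less gave wider intervals, with 19 of the 34 within 0.3 and all within 0.5 for a pseudocount of 0.1, and 21 within 0.3 and 33 within 0.5 for voom (Sox18 reached -0.53). On the scale used throughout, the bound farthest below 0 was that of Ly6a (-0.36) and the farthest above was that of Mcam (0.30). By mouse, the median within-mouse log2 difference of the 26 endothelial genes lay between -0.044 (mouse 5) and 0.033 (mouse 3), and that of the 8 mural genes between -0.12 (mouse 5) and 0.12 (mouse 3 and mouse 4), against -0.048 to 0.096 over all loci tested. The summed FPKM of the 26 endothelial genes was 434 to 469 in control and 428 to 483 in the cocktail, and that of the 9 mural genes 58.0 to 68.3 and 57.7 to 77.5. Bsg (mean control FPKM 199) and Slc2a1 (63.5) weigh most in the endothelial sum. Other brain cells also make them, so the sum does not measure endothelial content. Exons of 10 of the 37 genes, Slc2a1, Icam1 and Vcam1 among them, overlap those of another gene on the opposite strand in GENCODE M21. Those of Egfl7 also overlap the protein coding gene Gm20532 and the microRNA gene Mir126a on the same strand, which a directional kit cannot separate. The library kit was directional, and the strand setting used for the FPKM is not given in the sources used here.

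Other vascular genes were examined in 6 lists. Of 115 genes, 92 were tested, with 7 called higher and 2 called lower (9.78%, against 1.50% of all loci tested). The lists were drawn up with earlier results of these data known, Klf4 among them, so these counts are no independent evidence. No gene was called in the lists of VEGF, angiopoietin, Notch and TGF-beta signalling (18 tested, median log2 fold change 0.0079), barrier junctions and transporters (21 tested, 0.050), basement membrane (11 tested, 0.0088) and further pericyte and smooth muscle genes (9 tested, 0.045). The genes with the largest change there were Dll4 (0.28, adjusted p = 0.144 from limma), Slc16a1 (0.19), Sparc (0.15) and Tpm1 (0.13). The value of Tpm1 rested on mouse 1, without which it was 0.026. Dll4, a Notch ligand gene, was called without mouse 6 (0.35, adjusted p = 0.0433 from limma). Its control mean (0.989 FPKM) lay under 1, so it passed the filter on low FPKM through its cocktail mean (1.42). Exons of Dll4 overlap those of a gene on the opposite strand.

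Of the 17 genes tested for endothelial transcription and flow response, 15 were higher in the cocktail, against 6550 of all 12032 loci. Among these 15, Fli1 (control mean 0.978 FPKM) passed the filter on low FPKM only through its cocktail mean (1.11). Of the 17, 5 were called (29.4%, against 1.50% of all loci tested). The median log2 fold change of the list was 0.16. This list too was drawn up with earlier results of these data known. Klf4, a transcription factor gene that endothelial cells raise under flow and that other cells also express, had 13.3, 16.5 and 21.8 FPKM (lowest, median and highest) in control and 33.8, 35.3 and 47.6 in the cocktail. Adamts1, the gene of a secreted metalloprotease, had 10.8, 14.2 and 16.2 FPKM in control and 17.8, 23.7 and 25.9 in the cocktail. Apold1, an early response gene of the vascular endothelium, had 6.11, 7.25 and 9.75 FPKM in control and 10.2, 11.8 and 12.4 in the cocktail. For each of these genes the groups did not overlap, as at 0.914% of all loci tested. Their log2 fold changes were 1.11 for Klf4, 0.69 for Adamts1 and 0.56 for Apold1, and all were called under all 14 alternatives. Sox7 belongs with Sox17 and Sox18 to the SoxF transcription factors. It rose from 2.24 ± 0.291 to 3.61 ± 0.609 FPKM (SD, n = 6 each; log2 fold change 0.50, adjusted p = 0.00141 from limma), against 0.11 for Sox17 and -0.085 for Sox18, which did not pass the test. The difference between the SoxF genes was not tested. Foxq1, a forkhead gene of brain endothelium, was called at a log2 fold change of 0.32 (adjusted p = 0.0428 from limma) but kept the call under only 3 of 13 alternatives. Without mouse 1, 3, 4, 5 or 6 its adjusted p from limma was 0.0670 to 0.189. Its exons overlap those of a gene on the opposite strand.

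In the list of leukocyte adhesion and coagulation, 16 genes were tested, of which 2 were called higher and 2 lower (median log2 fold change 0.017). The called genes are 25.0% of the 16, against 1.50% of all loci tested (1.22% higher and 0.274% lower). Earlier results of these data were known when this list too was drawn up. The 2 lower ones were the selectin genes, whose proteins slow leukocytes on activated endothelium. Sele, the gene of E-selectin, had 1.43, 1.68 and 3.15 FPKM (lowest, median and highest) in control and 0.444, 0.623 and 1.17 in the cocktail. The groups did not overlap, as at 0.914% of all loci tested. The cocktail mean of Sele (0.739 FPKM) lay under 1, so it passed the filter on low FPKM through its control mean (1.89). Its log2 fold change was -0.72 (standard error 0.073, adjusted p = 0.000191 from limma), with 26 to 183 reads per library, and it was called under all 13 alternatives. At so low a level the scale shrinks the change: the ratio of the mean FPKM was 0.392, and the log2 fold change was -1.25 with a pseudocount of 0.1 and -1.34 with voom on the recovered reads. Selp, the gene of P-selectin, had 2.30, 2.87 and 3.84 FPKM in control and 0.806, 1.35 and 2.65 in the cocktail. It was lower in 6 of 6 mice with overlapping groups, and its log2 fold change was -0.57 (standard error 0.097, adjusted p = 0.00985 from limma). The call of Selp was lost without the block (adjusted p = 0.158 from limma), without mouse 2 (0.0519) and with no filter (0.0642). Exons of Selp overlap those of other genes on the opposite strand. Mouse 3 had the highest control FPKM of Sele, Selp, Icam1 and Vcam1. This was not particular to adhesion genes. Among control libraries, that of mouse 3 was highest at 11 of the 37 genes (29.7%, against 12.6% of all loci tested). Among cocktail libraries, that of mouse 3 was highest at 14 (37.8%, against 19.7%).

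The 2 called higher belong to fibrinolysis and the endothelial surface. Plat, the gene of tissue plasminogen activator, which neurons also make, had 29.5, 32.4 and 34.7 FPKM (lowest, median and highest) in control and 33.6, 40.9 and 44.2 in the cocktail. Its log2 fold change was 0.31 (standard error 0.052, adjusted p = 0.00989 from limma), lost without the block (0.0590) and without mouse 4 (0.0624). Cd93, an endothelial surface receptor gene, rose from 2.42 ± 0.268 to 3.09 ± 0.263 FPKM (SD, n = 6 each; log2 fold change 0.26, adjusted p = 0.0351 from limma). The call of Cd93 was kept under 5 of 13 alternatives and lost without any 1 of the 6 mice (adjusted p from limma 0.0750 to 0.123), with a log2 fold change of 0.24 to 0.27.

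**Figure D4:**
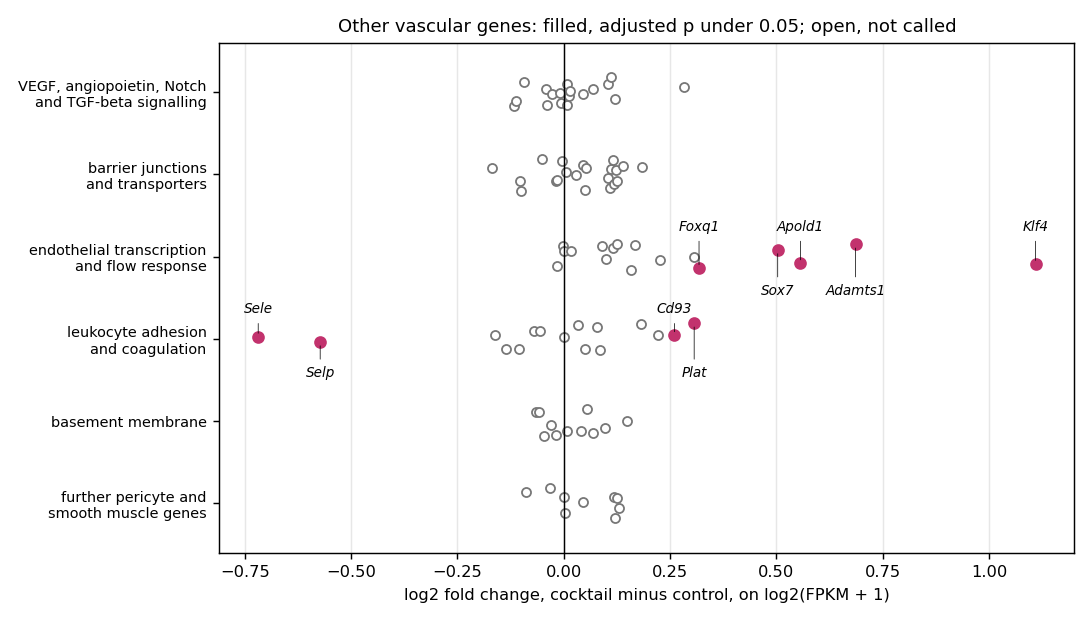
Log2 fold change (cocktail minus control, on log2(FPKM + 1)) of the 92 vascular genes tested outside the 37, by list, with vertical scatter for legibility. The filled, named circles passed adjusted p under 0.05: Sele (-0.72) and Selp (-0.57) lie left of 0 (low genes, whose change this scale shrinks), and the 7 higher genes run from Cd93 (0.26) to Klf4 (1.11).

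Markers of other cells were examined for comparison. None was called among 8 excitatory neuron, 8 inhibitory neuron, 8 astrocyte, 8 microglia and 8 oligodendrocyte lineage markers, nor among the 5 fibroblast, 2 choroid plexus and 1 blood markers tested. Median log2 fold changes of the lists with at least 5 genes tested lay between -0.0053 (excitatory neurons) and 0.13 (fibroblasts and meninges). Higher in the cocktail were 8 of 8 inhibitory neuron, 7 of 8 astrocyte and 7 of 8 oligodendrocyte lineage markers. So were 5 of 8 microglia, 4 of 8 excitatory neuron and 4 of 5 fibroblast markers, against 6550 of all 12032 loci. These directions were not tested. The 8 choroid plexus and ependyma markers summed to only 3.99 to 8.24 FPKM in control and 4.01 to 7.85 in the cocktail. The blood markers summed to 2.82 to 8.91 and 2.60 to 10.5 FPKM. The blood marker tested, the haemoglobin gene Hbb-b1, had 1.27 to 5.60 FPKM in control and 1.61 to 6.05 in the cocktail, higher in 5 of 6 mice, with a log2 fold change of 0.45 that did not pass the test (adjusted p = 0.0935 from limma), from 13 to 59 reads per library. Its part in the differences of vessel genes was not tested.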

How the data were processed

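Per the study's methods, the authors filtered out ribosomal RNA with BWA (0.6.1), aligned the rest to mm10 with TopHat (1.4.1), keeping 1 placement per read, and deposited FPKM estimated with Cufflinks (1.3.0) with bias correction, per library, with an interval and a status. The authors' DESeq2 (1.6.3) comparison was deposited as mean counts, fold changes with standard errors, test statistics and p-values with group means, and was not used.

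FPKM were taken as deposited. The interval spans 2 Poisson standard deviations, from which reads were recovered; of 36268 values under 20 reads, 83.1% were whole to within 0.05. Loci with a failed estimate in any library (117 of those tested) were left out of depth and voom only; all values of the 37 genes have the status OK. Loci averaging 1 FPKM or more were fitted as log2(FPKM + 1) in R 4.3.3 with limma 3.58.1, on terms for mouse and treatment, with a variance trend. P-values were adjusted by Benjamini-Hochberg over 12032 loci at 0.05. Mouse numbers pair the libraries, since both hemispheres come from 1 animal; deviations from group means correlated at 0.216 to 0.406 (median 0.337) within mice and at -0.42 to 0.445 (median -0.071) between mice. The 37 genes, lists and alternatives were chosen with earlier results of these data known; motifs were chosen after seeing them. All 37 genes are named, from other lists those called or, for vascular lists without a call, the most changed, and Sele was chosen for display after its values were seen. Sequences are from RefSeq (GRCm38.p6). Locus starts are counted from 1.. 1 gene of the vascular lists is not reported here and is left out of their counts. Replicates are mice. Alternatives were other pseudocounts, filters and scalings, no replicate block, no variance trend, voom on recovered reads and each mouse left out. Figures used matplotlib 3.10.9.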

Additional observations from a re-analysis of the deposited data

Results flagged for a closer look

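In 13 of 150 groups of 6 values (FPKM in control, FPKM in the cocktail and within-mouse log2 differences of the genes named), the lowest or highest value lay far from the other 5, its gap to the nearest being too large a share of the whole range by Dixon's criterion at 95%, where chance gives about 1 in 20, or 7.5 groups. No cause was tested for any of them. Mouse 1 accounts for 6 of the 13. Its within-mouse difference was 0.44 for Slco1a4 (others -0.24 to 0.0078), 0.30 for Tjp1 (others -0.065 to -0.032), -0.29 for Eng (others 0.082 to 0.28) and 0.65 for Tpm1 (others -0.11 to 0.15). Its control FPKM was 49.2 for Tpm1 (others 73.3 to 80.2), and its cocktail FPKM was 1.68 for Emcn (others 2.54 to 2.78).

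Mouse 3 had 12.7 FPKM for Icam1 in the cocktail (others 6.01 to 8.15), 22.4 for Ly6c1 in the cocktail (others 14.4 to 17.4) and 3.15 for Sele in control (others 1.43 to 1.96). The within-mouse difference of mouse 2 was 0.12 for Bsg (others -0.099 to -0.027) and 0.46 for Erg (others -0.16 to 0.042). Klf4 had 47.6 FPKM in the cocktail hemisphere of mouse 5 (others 33.8 to 37.0), and Sox7 had 1.69 FPKM in the control hemisphere of mouse 6 (others 2.22 to 2.51).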

How the results depend on the processing

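Of the 37 genes, 2 were called, Slc2a1 and Icam1. The number was 2 with a pseudocount of 0.1, a mean FPKM of at least 5, scaling by median of ratios, quantile normalization or no variance trend. It was 1 with no filter on low FPKM (Slc2a1), 1 with voom on recovered reads (Icam1) and 0 without the replicate block. Leaving out each mouse gave 1 (without mouse 3 or mouse 4, Icam1) to 3 (without mouse 1, with Egfl7). The number of all loci called was 180, but 88 without the replicate block, and 104 (without mouse 4) to 181 (without mouse 6) with each mouse left out. With a mean FPKM of at least 5, 94.7% of calls were higher, against 81.7%. The cause of these changes was not tested.

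The median log2 fold change of the genes and their median control level (5.93 FPKM) moved by less than the spread between libraries under every alternative. Of 487 values of single genes under the alternatives, 460 stayed on the same side of 0 and of the threshold. The sign changed in 20, none of them called. With each mouse left out in turn, log2 fold changes ran from -0.071 to 0.014 (Esam), -0.090 to 0.046 (Slco1a4), -0.037 to 0.065 (Abcb1a), -0.034 to 0.044 (Itm2a), -0.052 to 0.022 (Tjp1), -0.064 to 0.062 (Erg), -0.090 to 0.023 (Acta2) and -0.067 to 0.062 (Tagln). Other sign changes were those of Slco1a4 (0.042) and Tjp1 (-0.0055) with voom, and of Itm2a (-0.0034 and -0.011) and Tjp1 (-0.00076 and -0.011) with median-of-ratios scaling and after quantile normalization. Depth limits the 11 genes with fewer than 100 reads in some library.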
